A study of Mus musculus with 15 samples.

Results

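The 31 genes described here encode the T cell receptor, the machinery that carries its signal and other proteins typical of T lymphocytes, and their RNA was followed through libraries of sorted mouse plasma cells. They were chosen by name from a list, as 31 of the 22339 gene symbols of the table, and all 31 were found in it. The study profiled 5 groups of cells by RNA-seq with 3 biological replicates each. In spleen the sort crossed B220 with 2NBDG, which gave B220+2NBDG- and B220+2NBDG+ cells beside B220-2NBDG- and B220-2NBDG+ cells. The fifth group, BMPC, holds plasma cells of bone marrow, sorted as B220- 2NBDG+. In every group the cells were CD138-high, Ly6g- and CD11c-, and they were double sorted, untreated, from unimmunized male C57Bl6/N mice aged 8 to 12 weeks, with about 30000 cells per subset. No genetic change and no agent separated the groups, and the sort markers in the labels include no T cell protein. B220 is a form of the CD45 surface protein that B cells carry and mature plasma cells lose, and 2NBDG is a fluorescent glucose analogue that reports glucose uptake.

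A T cell recognises antigen with an alpha and a beta receptor chain. Each chain is joined from variable and joining segments to a constant segment, and the pair reaches the surface only together with the CD3 gamma, delta and epsilon chains and the zeta chain. The kinase Lck, held by the coreceptors CD4 or CD8, phosphorylates CD3 and zeta, Zap70 binds them, and adaptors such as Lat pass the signal on. Plasma cells secrete antibody and come from B cells, which build their own receptor from immunoglobulin genes.

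Levels are given as TPM, the deposited measure of transcript abundance per length and library, summed per gene after the immunoglobulin genes were removed and each library was brought back to 1000000. Those genes held 91.1% to 96.6% of the deposited TPM, so that the factor between the scales ran from 11.2 to 29.3. Depth, recovered from the TPM and effective lengths, was 17273700 to 24825841 estimated reads per library and 4399380 to 9911947 outside the immunoglobulin genes. All 9 plasma cell markers were detected in every group, and their summed level ran from 31950 to 132300 TPM. Every one of the 12 B cell markers was detected as well, at 19320 to 39170 TPM in sum. Jchain made up most of each plasma cell sum and Cd74 most of each B cell sum. In replicate 1 of B220+2NBDG- they gave 23142 of 32700 and 35815 of 39170 TPM. These sums thus follow mainly 1 gene each. Before any result, the replicate 3 libraries of spleen stood apart: their 8 erythroid markers summed to 2082 to 6747 TPM, against 82.1 to 427 in the other 8 spleen libraries. Their 10 neutrophil markers summed to 344 to 458 TPM, against 13.2 to 116. For most of the 31 T cell genes the same replicate 3 libraries held the lowest value of their group. The counts were 21 and 19 in the B220+ sorts (2NBDG- and 2NBDG+) and 24 and 21 in the B220- sorts. The share of all genes tested that were lowest there was not counted, so the counts are not shown to be particular to T cell genes. Whether these facts are connected was not tested.

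T cell receptor RNA was present in all 5 sorts and differed widely in amount between them. The constant genes and the CD3 and zeta genes, 7 in all, summed to 722, 298 and 111 TPM in replicates 1, 2 and 3 of B220+2NBDG-. The sums were 195, 191 and 67.6 in B220-2NBDG-, 96.2, 72.1 and 58.8 in B220+2NBDG+, 30.4, 52.2 and 34.0 in B220-2NBDG+, and 14.1, 40.8 and 25.3 in BMPC. Group means were 377 ± 313, 151 ± 72.3, 75.7 ± 19.0, 38.9 ± 11.7 and 26.7 ± 13.4 (SD, n = 3) in the same order. The first spread is nearly as large as its mean, and neighbouring groups in this order overlap, except B220+2NBDG+ and B220-2NBDG+, whose lowest and highest libraries were at 58.8 and 52.2. On the deposited scale, immunoglobulin included, the means were 32.6 ± 28.7, 7.98 ± 3.70, 3.50 ± 0.97, 1.41 ± 0.46 and 1.18 ± 0.63 TPM (SD, n = 3). The estimated reads behind the sums ran from 3930 in the first B220+2NBDG- library to 82.4 in the first BMPC library. In bulk samples such as these, fewer T cells and less of this RNA per cell cannot be told apart.

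**Figure D1:**
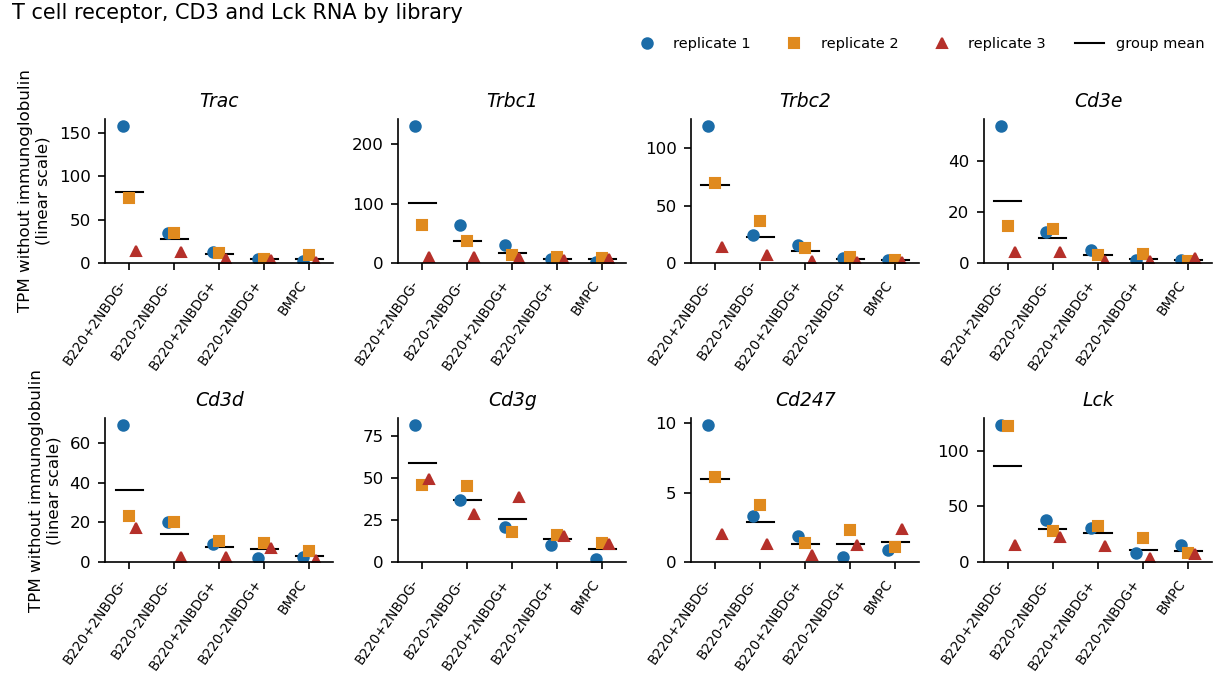
Level of 8 genes of the receptor complex and its kinase in each library (TPM without immunoglobulin genes, linear axes that start at 0 and differ between panels), by sorted group; symbols are replicates and bars are group means of 3. Replicate 1 of B220+2NBDG- is the highest of all 15 libraries in each panel, and replicate 3 of that group lies below it, least so for Cd3g (49.2 against 81.6 TPM).

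Trac, the constant segment of the alpha chain (ENSMUSG00000076928, chr14:54220521-54224206, plus strand, GRCm38), showed the pattern most clearly. Its level was 158, 74.6 and 13.5 TPM in replicates 1, 2 and 3 of B220+2NBDG-, 34.2, 34.1 and 13.2 in B220-2NBDG-, and 13.2, 11.8 and 5.14 in B220+2NBDG+. It was 4.17, 5.08 and 3.59 in B220-2NBDG+ and 2.60, 9.46 and 1.51 in BMPC. All 6 spleen 2NBDG- libraries lay above all 6 spleen 2NBDG+ libraries, with 13.175 against 13.172 TPM at the border, and Trac was the only 1 of the 31 genes of which this was true, as it was of 0.249% of all genes tested. Trac fell with 2NBDG uptake by 2.37 ± 0.52 (log2, SE, adjusted p = 0.0162 by limma with Benjamini-Hochberg adjustment over 11246 genes). Throughout, a change in 2NBDG or B220 is the average over both states of the other marker in spleen, on log2(TPM + 1), which understates changes of low genes.

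The beta chain has a pair of near-identical constant genes, Trbc1 (chr6:41538218-41539881) and Trbc2 (chr6:41546730-41548352), between which reads may be split wrongly. Trbc2 was at 119, 69.5 and 13.9 TPM in replicates 1, 2 and 3 of B220+2NBDG-, 24.6, 36.6 and 7.25 in B220-2NBDG-, 15.8, 13.4 and 1.69 in B220+2NBDG+, 4.76, 5.57 and 0.51 in B220-2NBDG+, and 2.80, 3.07 and 0.85 in BMPC. Trbc1 was at 231, 63.9 and 10.6 TPM in B220+2NBDG- cells, 63.2, 37.4 and 10.1 in B220-2NBDG-, 29.8, 14.1 and 9.17 in B220+2NBDG+, 7.61, 9.48 and 5.31 in B220-2NBDG+, and 2.18, 8.90 and 7.13 in BMPC. Both follow the order of Trac in spleen, with replicate 3 lowest in each spleen group. Trbc2 fell with 2NBDG uptake by 2.45 ± 0.62 (log2, SE, adjusted p = 0.0324 by limma), while Trbc1 did not pass the threshold.

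Variable segments gave a second view of the same RNA, since T cell clones differ in the segments they use. Reads assigned to the 21 beta variable genes of the table numbered 416, 168 and 33.9 in B220+2NBDG-, 79.8, 92.8 and 21.0 in B220-2NBDG-, 30.9, 35.9 and 6.0 in B220+2NBDG+, 9.0, 9.0 and 5.0 in B220-2NBDG+, and 3.0, 3.0 and 0 in BMPC. At least 3 reads were assigned to 15 of these genes in replicate 1 of B220+2NBDG-, to 16 in replicate 2 and to 6 in replicate 3. Reads thus fell on many variable genes in replicates 1 and 2 of that group, but unevenly. One of them led in replicate 1: Trbv17 took 173 of 416 beta variable reads in B220+2NBDG- (41.6%, 95% exact binomial interval 36.8% to 46.5%), 38 of 80 in B220-2NBDG- (47.5%, 36.2% to 59.0%), 11 of 31 in B220+2NBDG+ (35.5%, 19.2% to 54.6%) and 4 of 9 in B220-2NBDG+ (44.4%, 13.7% to 78.8%). In replicate 2 the same gene took 34 of 168 reads in B220+2NBDG- (20.2%, 14.4% to 27.1%) and 5 of 93 in B220-2NBDG- (5.4%, 1.8% to 12.1%). These intervals cover counting error only, rest on reads rounded to whole numbers, and count reads that need not be separate molecules. It took 1 of 36 in B220+2NBDG+ and 0 of 9 in B220-2NBDG+. In replicate 3 it took 0 of 34 and 0 of 6 reads in the B220+ sorts (2NBDG- and 2NBDG+) and 2 of 21 and 0 of 5 in the B220- sorts. The share was thus similar over the sorts in replicate 1 and not in replicate 2. Trbv17 was singled out after its values were seen, so its shares are a description.

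Gamma and delta receptor RNA was scarce. Reads on the 6 gamma variable genes ran from 0 to 9.0 per library, and those on the 5 delta variable genes from 0 to 4.0. In both cases the highest count was in B220-2NBDG- (for delta in 2 of its libraries). Of 9 gamma and delta constant gene names listed, 5 were in the table under those symbols, and their sum reached 10.2 TPM at most, again in B220-2NBDG-.

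The CD3 genes Cd3g, Cd3d and Cd3e lie side by side on chromosome 9. Their start regions are shown because the 3 genes fill this cluster and were measured together: the start of Cd3g lies 1355 bases from that of Cd3d, on the opposite strand, and 27841 bases separate the starts of Cd3d and Cd3e. Each stretch holds 250 bases before and 50 after a RefSeq start (GRCm38.p6), read 5′ to 3′ on the gene's strand. Capitals mark matches, on either strand, to short words bound by factors of T cells. The word searched for RUNX proteins was TGTGGT. That for GATA factors, which include Gata3, was AGATAA. Tcf7 and Lef1 bind a word searched as CTTTGA, the TCF/LEF word. The E box, the site of basic helix-loop-helix proteins, was searched as CANNTG. No word contains another, and marked matches are letters only, with no evidence of binding.
Cd3d (chr9:44981536-44981835, plus strand): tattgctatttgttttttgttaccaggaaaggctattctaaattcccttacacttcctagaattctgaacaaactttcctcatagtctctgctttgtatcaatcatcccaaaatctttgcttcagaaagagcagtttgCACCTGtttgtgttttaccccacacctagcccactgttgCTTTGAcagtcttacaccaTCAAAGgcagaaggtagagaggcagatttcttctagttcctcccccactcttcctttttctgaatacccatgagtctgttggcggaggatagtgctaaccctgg
Cd3e (chr9:45009562-45009861, minus strand): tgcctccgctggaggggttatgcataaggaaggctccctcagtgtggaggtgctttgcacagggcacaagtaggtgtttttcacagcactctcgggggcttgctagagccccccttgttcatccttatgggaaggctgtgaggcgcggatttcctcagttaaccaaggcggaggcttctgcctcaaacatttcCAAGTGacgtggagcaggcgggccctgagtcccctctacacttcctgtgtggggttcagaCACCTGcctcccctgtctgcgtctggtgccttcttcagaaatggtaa
Cd3g (chr9:44980382-44980681, minus strand): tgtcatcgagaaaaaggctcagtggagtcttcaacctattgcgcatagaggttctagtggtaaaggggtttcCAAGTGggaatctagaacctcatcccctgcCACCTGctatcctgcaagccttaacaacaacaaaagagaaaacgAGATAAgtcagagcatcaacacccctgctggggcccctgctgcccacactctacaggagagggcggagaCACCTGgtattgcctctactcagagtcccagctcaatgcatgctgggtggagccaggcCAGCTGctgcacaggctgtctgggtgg
The Cd3d stretch has 2 TCF/LEF words and 1 E box, the Cd3e stretch 2 E boxes, and the Cd3g stretch 1 GATA word and 4 E boxes. Over all 32851 promoters of the table, 16.8% hold the RUNX word, 11.2% the GATA word, 16.0% the TCF/LEF word and 72.3% the E box. Of the 28 promoters listed for 20 of the 31 genes, 5, 2, 8 and 25 hold them in the same order. The ETS core GGAA, left in lower case, is in 96.0% of all promoters and in 27 of these 28.

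Cd3e, the epsilon chain (chr9:44998740-45009627, minus strand), has a single transcript in the table and so the plainest measurement of the 3. It was at 53.6, 14.6 and 4.40 TPM in replicates 1, 2 and 3 of B220+2NBDG-, 11.9, 13.3 and 4.33 in B220-2NBDG-, 5.03, 3.09 and 0.87 in B220+2NBDG+, 1.13, 3.43 and 0.73 in B220-2NBDG+, and 1.06, 0.69 and 1.86 in BMPC. Replicate 1 of B220+2NBDG- stands far above all others, and the replicate 3 libraries are lowest in each spleen group. Cd3e fell with 2NBDG uptake by 2.09 ± 0.50 (log2, SE, adjusted p = 0.0236 by limma).

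Cd3g, the gamma chain, was less uneven. It was at 81.6, 45.8 and 49.2 TPM in B220+2NBDG- cells, 37.3, 45.2 and 28.7 in B220-2NBDG-, 21.0, 17.8 and 38.8 in B220+2NBDG+, 10.1, 16.5 and 15.4 in B220-2NBDG+, and 1.96, 11.7 and 10.6 in BMPC. Replicate 3 of B220+2NBDG+ was here the highest of its group, unlike in the other 6 genes of the complex. Cd3g fell with 2NBDG uptake by 1.27 ± 0.34 (log2, SE, adjusted p = 0.038 by limma). Much of its TPM came from a transcript with an effective length of only 163 nt, on which few reads weigh much: in replicate 3 of B220+2NBDG+ that transcript gave 23.97 of the 38.8 TPM.

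Cd3d, the delta chain, and Cd247, the zeta chain, did not pass the threshold in any comparison. Cd3d was at 68.9, 23.3 and 17.3 TPM in B220+2NBDG- and at 2.62, 5.86 and 0.93 in BMPC. A transcript with an effective length of 40.7 nt carried 56.0, 15.4 and 15.7 TPM of the B220+2NBDG- values, and the long transcript 12.9, 7.85 and 1.66. The long transcript alone was at 3.96, 5.30 and 2.76 in B220-2NBDG-, 2.79, 2.43 and 0.84 in B220+2NBDG+, 2.24, 2.77 and 0.88 in B220-2NBDG+, and 0.89, 1.01 and 0.93 in BMPC. Cd247 ran from 9.88, 6.16 and 2.01 TPM in B220+2NBDG- to 0.86, 1.12 and 2.37 in BMPC.

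The coreceptors did not go with the receptor. Cd4, whose protein binds MHC class II and marks helper T cells, was lowest where receptor RNA was highest: 0.72, 1.66 and 2.29 TPM in B220+2NBDG- cells, 2.38, 3.25 and 3.27 in B220-2NBDG-, 2.13, 3.01 and 5.79 in B220+2NBDG+, 1.10, 2.89 and 4.54 in B220-2NBDG+, and 9.70, 7.06 and 22.6 in BMPC. All 3 BMPC libraries lay above all 12 spleen libraries, but the share of all genes tested with such a split was not counted. Cd8a, one chain of the killer T cell coreceptor, reached at most 0.54 TPM in any library, from 2.0 to 19.2 estimated reads, and stayed below the filter of 1 TPM in 3 libraries. Cd8b1, the other chain, was highest in B220-2NBDG- at 5.94, 2.81 and 7.86 TPM and lowest in B220+2NBDG+ at 0.50, 1.08 and 2.73. In B220+2NBDG-, the group richest in receptor RNA, the mean of Cd4 was 1.56 ± 0.79, of Cd8a 0.30 ± 0.21 and of Cd8b1 2.93 ± 0.40 TPM (SD, n = 3), beside 82.0 ± 72.4 for Trac.

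**Figure D2:**
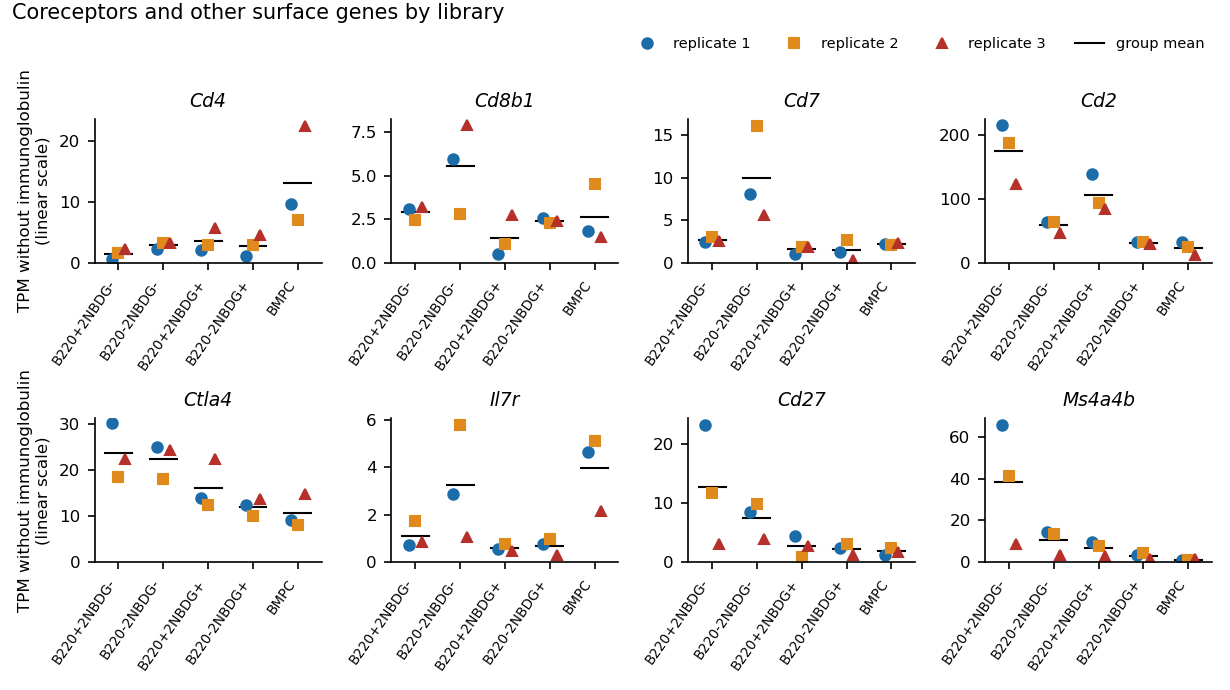
Level of 8 further genes in each library (TPM without immunoglobulin genes, linear axes that start at 0 and differ between panels), by sorted group; symbols are replicates and bars are group means of 3. Cd4 is highest in BMPC, Cd7 in B220-2NBDG- and Cd2 in the B220+ groups, so these genes do not share 1 order.

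Lck, the kinase at the head of the signal, was at 123, 122 and 15.2 TPM in replicates 1, 2 and 3 of B220+2NBDG-, 37.7, 28.0 and 22.5 in B220-2NBDG-, 30.97, 32.8 and 14.2 in B220+2NBDG+, 8.05, 21.7 and 3.72 in B220-2NBDG+, and 15.6, 8.02 and 7.23 in BMPC. Replicate 3 was the lowest library in all 5 groups, and Lck did not pass the threshold in any comparison. The gene has separate starts, a long known feature of it in T cells, and its transcripts in the table begin near the downstream one or at the upstream one. Both start regions (minus strand of chromosome 4, same layout and marks as above) are shown because transcripts from both were measured.
Lck upstream start (chr4:129573592-129573891, minus strand): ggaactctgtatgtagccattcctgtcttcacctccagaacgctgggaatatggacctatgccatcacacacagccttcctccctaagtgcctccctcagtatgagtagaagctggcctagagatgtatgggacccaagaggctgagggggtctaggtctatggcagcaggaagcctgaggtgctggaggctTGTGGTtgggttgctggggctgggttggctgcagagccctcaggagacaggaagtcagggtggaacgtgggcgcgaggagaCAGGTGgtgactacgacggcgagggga
Lck downstream start (chr4:129558323-129558622, minus strand): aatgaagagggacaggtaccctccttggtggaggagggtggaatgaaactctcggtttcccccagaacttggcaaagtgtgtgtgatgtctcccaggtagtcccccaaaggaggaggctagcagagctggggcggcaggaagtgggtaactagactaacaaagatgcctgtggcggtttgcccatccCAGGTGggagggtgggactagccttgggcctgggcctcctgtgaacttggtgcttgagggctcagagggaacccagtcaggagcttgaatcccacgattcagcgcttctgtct
Estimated reads on transcripts from the upstream start numbered 968, 747 and 112 in B220+2NBDG- and 207, 207 and 133 in B220-2NBDG-. They were 50.2, 147 and 0 in B220+2NBDG+, 0, 66.2 and 0 in B220-2NBDG+, and 28.8, 30.8 and 38.2 in BMPC. Downstream-start transcripts held 294, 423 and 75.5 reads in B220+2NBDG-, 77.5, 46.2 and 28.0 in B220-2NBDG-, 156, 87.3 and 114 in B220+2NBDG+, 69.9, 45.5 and 37.9 in B220-2NBDG+, and 67.9, 60.0 and 10.7 in BMPC. By reads the upstream start was ahead in all 6 spleen 2NBDG- libraries and in 2 of the 6 spleen 2NBDG+ libraries. By TPM, which divides by transcript length, the downstream start was ahead in all 15 libraries, for example at 81.2 against 41.7 TPM in replicate 1 of B220+2NBDG-, where a transcript with an effective length of 119 nt gave 73.5 TPM. Since the transcripts share sequence, the assignment between starts is an estimate, and the difference was not tested.

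Among the other signalling genes, Skap1, an adaptor that couples the receptor to integrins, fell with 2NBDG uptake by 1.46 ± 0.35 (log2, SE, adjusted p = 0.0239 by limma). Its levels were 10.7, 6.85 and 1.63 TPM in B220+2NBDG- cells, 2.74, 7.59 and 1.41 in B220-2NBDG-, 1.26, 2.02 and 0.84 in B220+2NBDG+, 0.48, 0.59 and 0.43 in B220-2NBDG+, and 0.65, 0.99 and 0.70 in BMPC. Lat, the membrane adaptor that Zap70 phosphorylates, was at 22.6, 9.68 and 2.60 TPM in B220+2NBDG- and at 8.26, 7.68 and 6.70 in BMPC. In B220-2NBDG+ Lat was at 3.53, 3.03 and 1.37 TPM, below all 3 BMPC libraries, but it was not called in that comparison. The share of all genes tested that were split in this way was not counted. Zap70 itself was scarce and uneven, at 3.85, 0.59 and 0.20 TPM in B220+2NBDG- cells, while B220-2NBDG- had 0.97, 4.06 and 0.50. Prkcq, the protein kinase C that acts after the receptor, stayed at or under 0.91 TPM. Themis, a thymocyte signalling protein, ran from 0.38 to 2.86 TPM and came mostly from 1 transcript annotated for nonsense-mediated decay. Trat1, an adaptor that sits with the receptor, had only such a transcript in the table and between 0 and 9.0 estimated reads.

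Of the transcription factors, Tcf7 and Lef1, partners of beta-catenin that act in naive T cells, had their highest group mean in B220+2NBDG- cells. Tcf7 was at 11.9, 7.18 and 1.45 TPM in B220+2NBDG- cells, 3.17, 4.98 and 1.39 in B220-2NBDG-, 2.69, 1.64 and 1.09 in B220+2NBDG+, 1.10, 0.99 and 1.28 in B220-2NBDG+, and 1.39, 1.07 and 1.32 in BMPC. Lef1 was at 9.35, 7.55 and 2.86 TPM in B220+2NBDG- cells, 2.86, 1.92 and 1.98 in B220-2NBDG-, 2.79, 3.19 and 2.06 in B220+2NBDG+, 1.27, 1.51 and 1.15 in B220-2NBDG+, and 1.87, 1.69 and 1.27 in BMPC. Unlike the receptor sum, Lef1 had a higher mean in B220+2NBDG+ (2.68) than in B220-2NBDG- (2.25). Lef1 fell with B220 loss by 0.89 ± 0.21 (log2, SE, adjusted p = 0.0185 by limma). Bcl11b, which keeps T cell identity, reached 0.75 TPM at most. Gata3, a factor of T cell development and of type 2 helper cells, reached 1.28 TPM at most, in B220-2NBDG-.

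Surface genes formed more than 1 pattern. Ms4a4b, a membrane protein of T cells, was at 65.5, 41.0 and 8.61 TPM in B220+2NBDG- cells, 14.3, 13.6 and 3.42 in B220-2NBDG-, 9.68, 7.78 and 3.00 in B220+2NBDG+, 3.47, 4.32 and 1.42 in B220-2NBDG+, and 1.01, 0.93 and 1.63 in BMPC. It fell with 2NBDG uptake by 1.71 ± 0.46 (log2, SE, adjusted p = 0.043 by limma). Cd27, a costimulatory receptor that T cells share with some B lineage cells, was at 23.2, 11.6 and 3.11 TPM in B220+2NBDG- and 8.42, 9.82 and 3.95 in B220-2NBDG-, against 4.50, 0.95 and 2.80 in B220+2NBDG+ and 2.42, 3.16 and 1.26 in B220-2NBDG+. Averaged over B220, it fell with 2NBDG uptake by 1.49 ± 0.39 (log2, SE, adjusted p = 0.0374 by limma). Cd6, a scavenger receptor family member that tunes T cell signals, was at 10.6, 3.38 and 0.65, then 2.22, 3.57 and 2.11, against 1.10, 0.42 and 0.72, then 0.43, 0.42 and 0.23 TPM in the same groups. Averaged likewise, Cd6 fell by 1.37 ± 0.34 (log2, SE, adjusted p = 0.0293 by limma). Cd5, its relative, was at 3.87, 1.56 and 0.61 TPM in B220+2NBDG- and under 1 in every other library. Thy1, the classic mouse T cell surface marker, was at 2.03, 1.60 and 0.14 TPM in B220+2NBDG- and 0.07, 0.61 and 0 in BMPC.

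Cd2, an adhesion receptor that mouse B cells also carry, was the highest of the 31 genes in 13 of 15 libraries, and it split by B220. Its level was 215, 188 and 124 TPM in B220+2NBDG- cells, 140, 94.2 and 83.6 in B220+2NBDG+, 63.9, 64.7 and 47.6 in B220-2NBDG-, 32.9, 33.5 and 29.8 in B220-2NBDG+, and 32.7, 25.1 and 13.2 in BMPC. All 6 spleen B220+ libraries lay above all 6 spleen B220- libraries, which held for no other of the 31 genes and for 1.48% of all genes tested. Cd2 fell with B220 loss by 1.60 ± 0.21 (log2, SE, adjusted p = 3.98e-04 by limma) and with 2NBDG uptake by 0.78 ± 0.21 (adjusted p = 0.0409). Beside it, 5 of 12 B cell markers fell with B220 loss (among them Cr2 and Blk), and the B cell sums ran from 23640 to 39170 TPM in B220+2NBDG- cells, 20160 to 25330 in B220-2NBDG-, 23740 to 32760 in B220+2NBDG+, 21980 to 25000 in B220-2NBDG+ and 19320 to 22890 in BMPC, with no marker at 0. Their part in the Cd2 result was not tested.

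Cd7, an immunoglobulin family receptor of T and NK cells, was highest in B220-2NBDG-. It was at 8.06, 16.1 and 5.62 TPM there, 2.51, 3.02 and 2.61 in B220+2NBDG-, 1.04, 1.90 and 1.87 in B220+2NBDG+, 1.31, 2.74 and 0.40 in B220-2NBDG+, and 2.18, 2.12 and 2.36 in BMPC. The 3 libraries of B220-2NBDG- lay above all 12 others, a split whose share over all genes tested was not counted. Replicate 1 of B220+2NBDG-, the library richest in receptor RNA, had no excess. Cd7 fell with 2NBDG uptake by 1.33 ± 0.25 (log2, SE, adjusted p = 0.00659 by limma), the lowest adjusted p of the 24 genes in that comparison. Ctla4, the inhibitory receptor of activated and regulatory T cells, was present in all libraries at 8.17 to 30.1 TPM. It fell with 2NBDG uptake by 0.69 ± 0.19 (log2, SE, adjusted p = 0.0445 by limma), from 30.1, 18.4 and 22.3 in B220+2NBDG- and 24.8, 17.9 and 24.2 in B220-2NBDG- to 13.9, 12.3 and 22.2 in B220+2NBDG+ and 12.4, 9.92 and 13.7 in B220-2NBDG+. Il7r, a receptor for the survival cytokine IL-7, was highest in BMPC at 4.65, 5.11 and 2.17 TPM and in B220-2NBDG- at 2.86, 5.79 and 1.05, and under 2 elsewhere. Icos, a costimulatory receptor of follicular helper T cells, ranged from 0.32 to 4.28 TPM with overlapping groups.

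**Figure D3:**
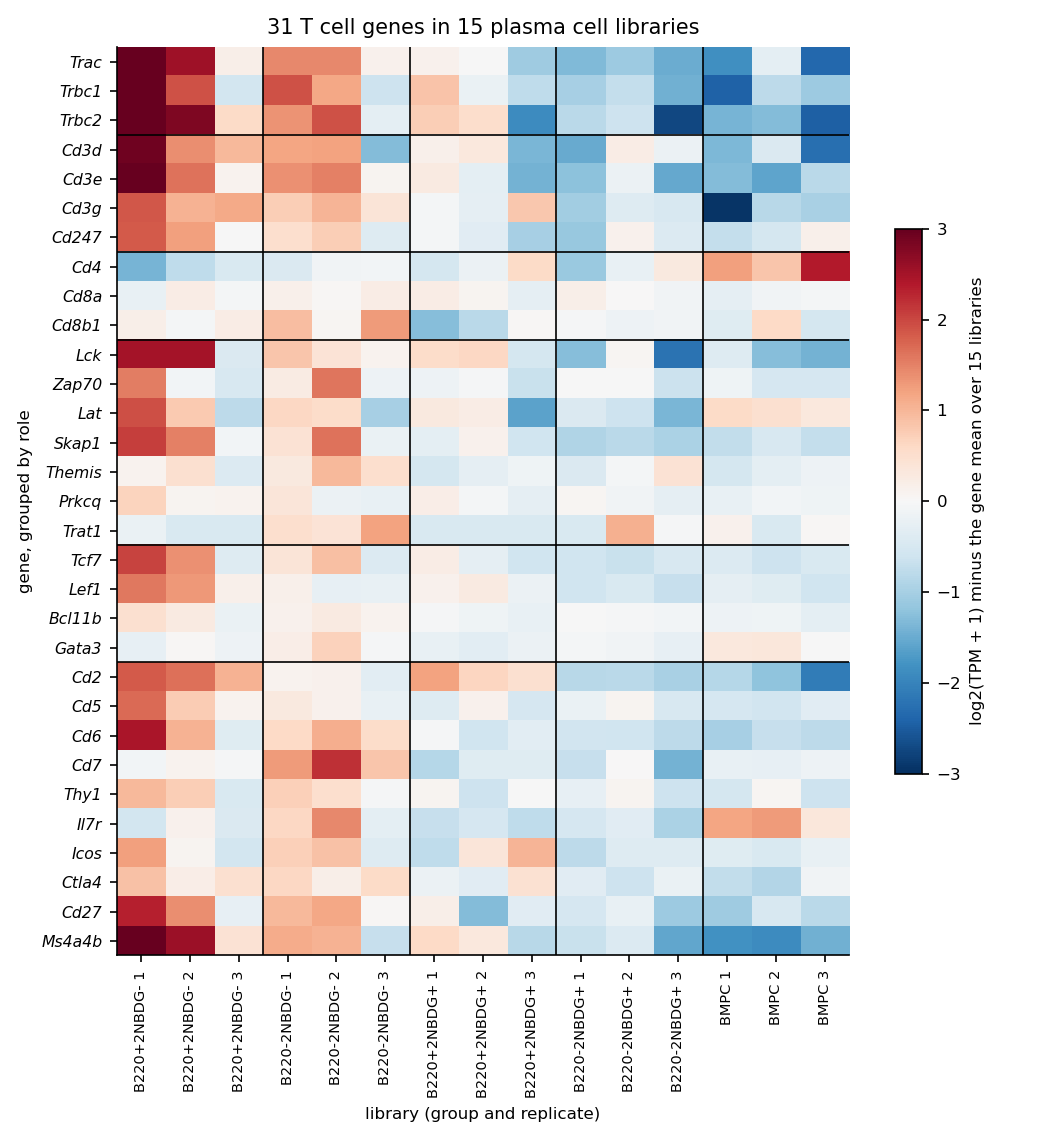
All 31 genes (rows, by role) in the 15 libraries (columns): colour is log2(TPM + 1) minus the gene's mean over the libraries, and the colour scale ends at -3 and 3. Most rows darken to red in replicates 1 and 2 of B220+2NBDG- and in replicates 1 and 2 of B220-2NBDG-, while Cd4, Cd7 and Il7r have other orders.

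Counted together, 24 of the 31 genes passed the filter and 7 did not (Cd5, Cd8a, Zap70, Bcl11b, Gata3, Prkcq and Trat1). Skap1, Cd6, Themis, Thy1 and Icos reached 1 TPM in 3 libraries only with 2NBDG- libraries included. The filter thus favoured a fall with 2NBDG uptake in these genes, and Skap1 and Cd6 are among those called. With 2NBDG uptake, 11 of the 24 fell and 0 rose, where 4.44% of all 11246 genes tested fell and 2.02% rose. The median log2 difference was -1.20 over the 24 and -0.04 over all genes tested, 23 of the 24 differences were negative where 57.0% of all were, and 21 had an unadjusted p under 0.05 where 20.1% of all genes did. The exception in sign was Cd4. In the same comparison 2 of 9 plasma cell markers rose (Jchain and Tnfrsf17), with sums of 31950 to 46450 TPM in B220+2NBDG- cells, 59270 to 67560 in B220-2NBDG-, 54320 to 63250 in B220+2NBDG+, 84270 to 93940 in B220-2NBDG+ and 92200 to 132300 in BMPC. Of 12 B cell markers 1 fell (Blk), and 0 of 10 neutrophil, 12 macrophage, monocyte and dendritic cell, and 7 tested erythroid markers passed limma's threshold. The macrophage, monocyte and dendritic cell list had a median difference of 0.86 and 6 of 12 at an unadjusted p under 0.05, the neutrophil list -0.09 and 1 of 10, and the erythroid list 0.83 and 0 of 7. The macrophage, monocyte and dendritic cell sums, with no marker at 0, were 131 to 415 TPM in B220+2NBDG- cells, 158 to 579 in B220-2NBDG-, 329 to 1433 in B220+2NBDG+, 199 to 766 in B220-2NBDG+ and 434 to 757 in BMPC. The part of these cells in the result was not tested.

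Leaving out single libraries moved that count of 11. It was 4, 3 and 17 without replicate 1, 2 or 3 of B220+2NBDG-, 4, 3 and 9 without those of B220-2NBDG-, 8, 5 and 5 without those of B220+2NBDG+, 2, 6 and 2 without those of B220-2NBDG+, and 9, 9 and 10 without those of BMPC. Over all genes tested, 310 to 798 fell in these 15 fits, against 499 of 11246 with all libraries. Trac and Cd7 kept their calls in all 15 of these fits, with adjusted p up to 0.0461 and 0.0196 (limma). Trbc2 lost its call in 7 of 15, Cd3e and Skap1 in 6 each, Cd6 and Cd27 in 8 each, Cd3g and Ctla4 in 10 each, Cd2 in 11 and Ms4a4b in 13, with adjusted p up to 0.111. Without the 4 replicate 3 libraries of spleen, an alternative added after the data were seen, 14 of the 24 fell: Trbc1, Cd247, Lck, Lat, Tcf7 and Lef1 joined, and Cd3g, Cd2 and Ctla4 dropped out. Of all 10937 genes tested in that fit, 269 fell.

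**Figure D4:**
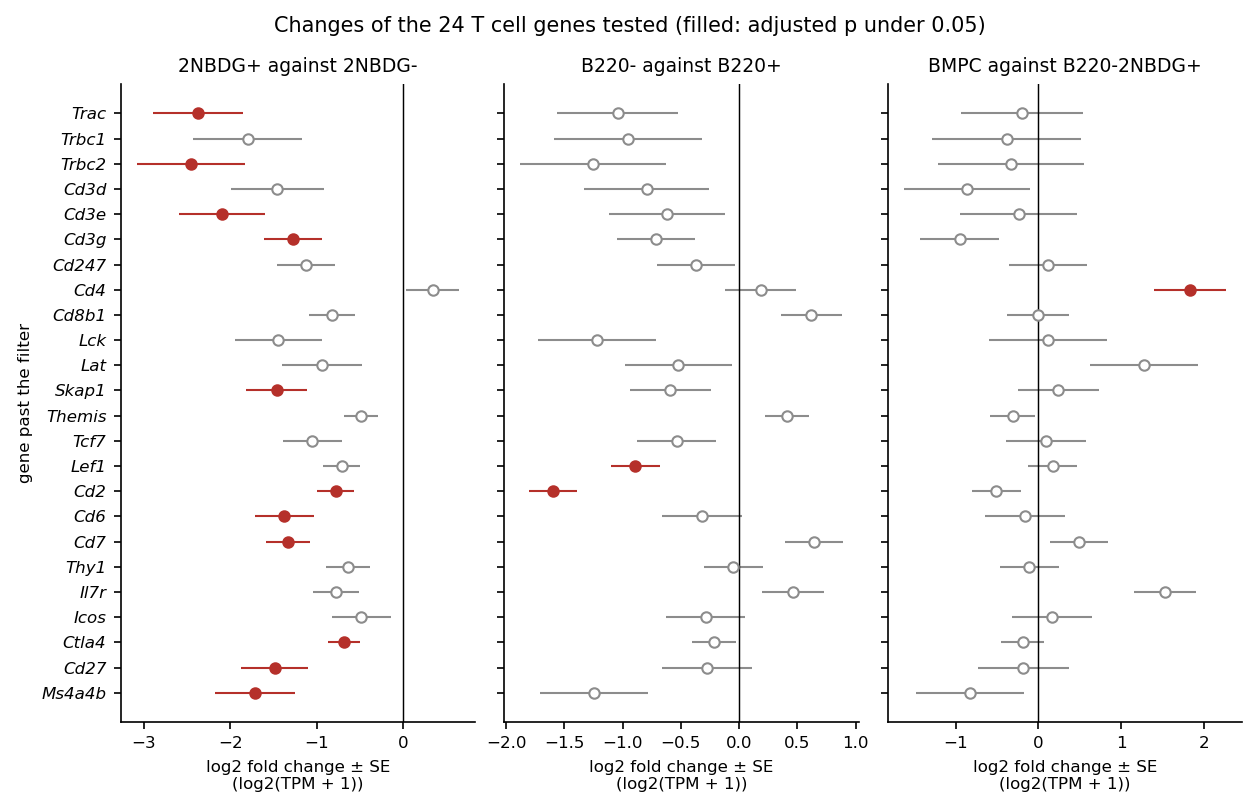
Difference of the 24 genes past the filter in 3 comparisons (log2 fold change with its SE, on log2(TPM + 1)); filled points passed an adjusted p of 0.05. Of the 24, 23 lie below 0 with 2NBDG uptake and 11 of these are filled, against 2 filled with B220 loss and 1, Cd4, in bone marrow.

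With B220 loss, 2 of the 24 genes fell, Cd2 and Lef1, and 0 rose, where 5.85% of all genes tested fell and 2.8% rose. The median was -0.53 over the 24 and -0.09 over all genes tested. Cd2 kept its call in all 15 fits with 1 library left out, and Lef1 lost it only without replicate 2 of B220+2NBDG+ (adjusted p = 0.0537 by limma). Without the 4 replicate 3 libraries of spleen, 6 fell (Trbc2, Lck, Tcf7, Lef1, Cd2 and Ms4a4b) and 1 rose (Cd7), where 448 of all 10937 genes tested fell and 188 rose.

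The interaction asks whether the 2NBDG difference depends on B220. For 0 of the 24 genes did it pass the threshold of limma's adjusted p, and for 1, Cd7, the unadjusted p was under 0.05. Over all genes tested 0% were called higher and 0.0267% lower. Read by groups, 5 of the 24 genes had all B220+2NBDG+ libraries below all B220+2NBDG- libraries (Trac, Cd3d, Cd3g, Cd247 and Cd7), where 8.16% of all genes tested did. In B220- cells 16 of the 24 were separated in this way, where 14.7% of all genes tested were. These counts do not show that the 2NBDG difference itself was unequal.

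Against B220-2NBDG+ cells of spleen, bone marrow plasma cells had 1 of the 24 genes higher, Cd4, and 0 lower, where 1.03% of all genes tested were higher and 0.889% lower. Cd4 rose by 1.83 ± 0.43 (log2, SE, adjusted p = 0.0496 by limma). That call was lost in 12 of 15 fits with 1 library left out, with adjusted p up to 0.191, and was kept only without replicate 3 of 1 of the spleen groups other than B220-2NBDG-. Il7r was not called with all libraries (adjusted p = 0.0544 by limma), but it was the only gene of the 24 called higher in some of these fits. In this comparison 8 of 10 neutrophil markers rose, with sums of 5798 to 9609 TPM in BMPC against 66.3 to 344 in B220-2NBDG+, and 0 of 12 macrophage, monocyte and dendritic cell markers did, with 434 to 757 against 199 to 766 TPM. No marker of either list was at 0 in these groups, and their part in the Cd4 result was not tested. The 7 receptor and CD3 genes included none that was called here, and their sums were 14.1 to 40.8 TPM in BMPC and 30.4 to 52.2 in B220-2NBDG+.

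**Figure D5:**
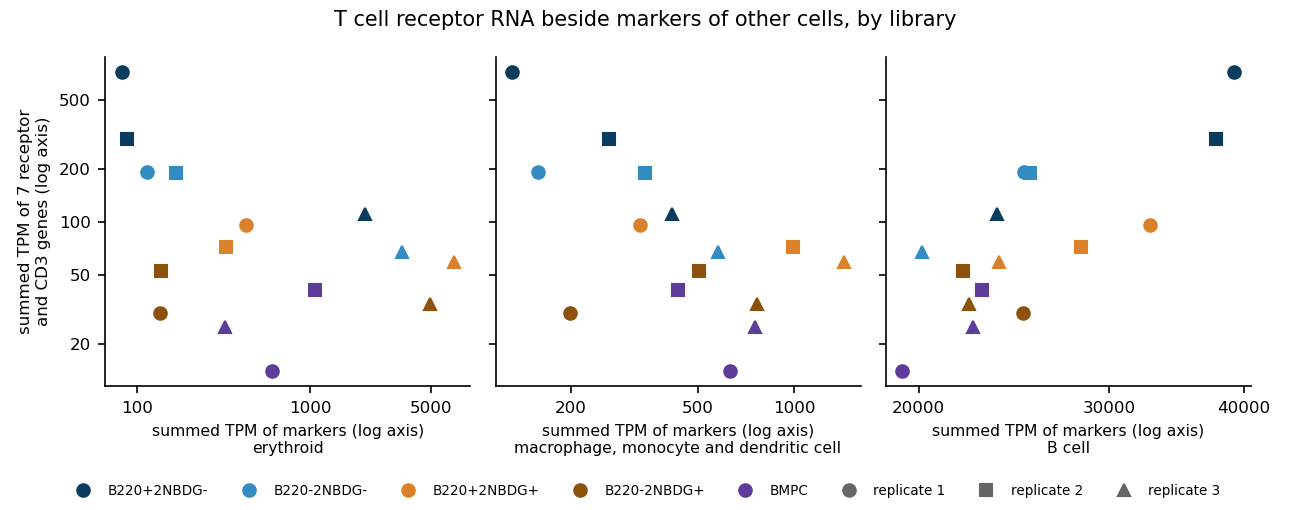
Summed TPM of the 7 receptor and CD3 genes in each library (vertical log axis) against summed TPM of markers of other cells (horizontal log axes, different ranges); colours are groups and symbols are replicates. The replicate 3 libraries of spleen (triangles) sit at 2082 to 6747 TPM of erythroid markers, and the first pair of B220+2NBDG- libraries have the most B cell marker RNA, most of it Cd74.

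How far each gene went with the receptor was described by Pearson's r of log2(TPM + 1) with the mean of the 7 receptor and CD3 genes over the 15 libraries, which share depth and groups. Outside those 7, r was 0.96 for Ms4a4b, 0.93 for Skap1, 0.92 for Cd6, Tcf7 and Cd27, 0.89 for Cd5, 0.87 for Lck and 0.86 for Lef1 and Bcl11b. It was 0.79 for Cd2, 0.65 for Ctla4, 0.45 for Cd7, 0.23 for Cd8a, 0.17 for Cd8b1, 0.02 for Gata3, -0.02 for Trat1 and -0.68 for Cd4. Mean levels in B220+2NBDG- over those in B220-2NBDG+ give the sizes: 19.1 for Trac, 18.7 for Trbc2, 13.7 for Cd3e, 13.6 for Trbc1 and Cd6, 12.8 for Skap1 and 12.5 for Ms4a4b, but 5.47 for Cd2, 1.97 for Ctla4, 1.83 for Cd7, 1.22 for Cd8b1 and 0.55 for Cd4. Without replicate 1 of B220+2NBDG- the ratio was 10.3 for Trac, 11.6 for Trbc2, 5.39 for Cd3e, 4.99 for Trbc1, 5.62 for Cd6, 8.45 for Skap1 and 8.08 for Ms4a4b. Among all other genes tested, those most like the receptor mean were Gzmk (granzyme K, r = 0.959), Crtam (0.954), Sh2d2a (0.944) and Ddc (0.939), and the 15 highest included Txk and Eomes.

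Gzmk, a protease of cytotoxic T cells, was at 13.6, 4.68 and 1.98 TPM in B220+2NBDG- cells, 3.62, 2.14 and 1.61 in B220-2NBDG- and 1.99 or less in the other 9 libraries. It and Eomes, a transcription factor of such cells, fell with 2NBDG uptake and were 2 of 8 tested cytotoxic and NK cell genes to do so, where 4.44% of all genes tested fell. Both passed the filter only with 2NBDG- libraries included, which favoured a fall in them once they were tested. Gzmk fell by 1.54 ± 0.33 and Eomes by 0.95 ± 0.25 (log2, SE, adjusted p = 0.0142 and 0.0374 by limma). The rest of that list was not called with 2NBDG uptake, its median difference was -0.43, and Klrk1 and Gzma had positive differences. Nkg7, at 87.7, 34.1 and 7.49 TPM in B220+2NBDG-, missed the threshold (adjusted p = 0.0508 by limma). It was at 5.64, 4.67 and 4.05 TPM in B220-2NBDG+ but at 15.5, 25.1 and 48.7 in BMPC, unlike the receptor genes. Prf1, which encodes perforin, fell with B220 loss by 1.09 ± 0.30 (adjusted p = 0.038 by limma). It too was higher in BMPC, at 53.1, 35.6 and 15.4 TPM, than in B220-2NBDG+, at 10.9, 9.59 and 5.32. In bone marrow 0 of the 8 were called, with a median difference of 0.29, and Gzmk and Eomes had negative differences. Of 13 tested T cell subset and state genes, Il2ra and Cxcr3 fell with 2NBDG uptake, and Klf2, S1pr1 and Cxcr3 fell with B220 loss. Of all genes tested, 4.44% fell with 2NBDG uptake and 5.85% with B220 loss. Foxp3, the factor of regulatory T cells, reached 0.31 TPM at most.

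Other genes of the pathway were counted from a separate list. Of 24 tested genes for other parts of T cell receptor signalling, 0 were called with 2NBDG uptake by limma, 7 had an unadjusted p under 0.05 where 20.1% of all genes did, and their median difference was -0.11. With B220 loss Fyn, Rasgrp1 and Nfatc3 fell and Cd28 rose, where 5.85% of all genes tested fell and 2.8% rose. In bone marrow Csk fell and Sla2 rose (adjusted p = 0.0159 and 0.0496 by limma), where 0.889% of all genes tested fell and 1.03% rose. Cd28, the main costimulatory receptor of T cells, was at 17.8 to 37.9 TPM in all 15 libraries.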

How the data were processed

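RNA-seq was done on 15 libraries of sorted mouse plasma cells. Per the submitters' processing notes, the authors quantified transcripts with Salmon 0.9.1 on GRCm38.p6; cDNA and libraries were made with Clontech Smartseq and Nextera kits, per the labels' protocols. The deposited values are TPM for 63553 transcripts, with 1 length and 1 effective length (other, in nt, per the file headers) for each, given by the authors for no single library. Here TPM were summed per gene symbol, 262 immunoglobulin genes (GENCODE M21 types) were set aside, and each library was rescaled to 1000000. Genes at 1 TPM or more in 3 or more of 15 libraries were tested (11246 genes) on log2(TPM + 1) with limma 3.58.1 in R 4.3.3: group means of all 5 groups, moderated with a trend, and Benjamini-Hochberg adjustment within each of 4 comparisons at 0.05. The script recovered large known changes in simulated data with small independent noise and no shared replicate effect. That check of the code does not show how the fit behaves on genes as uneven as these.

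Whole reads were estimated as TPM times effective length, scaled per library so that low products of single-transcript genes (at most 20 reads, at least 500 nt) came out whole; 72.3% to 74.9% fell within 0.05 of a whole number, so these reads are approximate and were not used in tests. The 31 genes and all lists were chosen with earlier results of these data known. All 31 genes are accounted for; fold changes are printed for genes called, and the genes most like the receptor are the 15 tested others with the highest correlation. Replicates are biological per the labels; animals shared between groups are not stated. Alternatives were the deposited TPM, median-of-ratios scaling, a pseudocount of 0.1, no filter, a replicate block and each library left out. Promoters come from RefSeq (GRCm38.p6); protein sequences were not used here.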

Additional observations from a re-analysis of the deposited data

How the results depend on the processing

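No direction of a called gene reversed under any alternative run, but the counts moved. The number of genes that fell with 2NBDG uptake (11 of 24) was 8 on the deposited TPM, where only 8 of the 31 passed the filter. These included Trbc1, Cd3d and Lck, which were not among the 11. The number was 9 with median-of-ratios scaling, 10 with a pseudocount of 0.1, 4 without the filter on low values (31 tested), and 2 to 17 with 1 library left out. Without the 4 replicate 3 libraries of spleen it was 14. Over all genes tested, 421 fell with median-of-ratios scaling, 439 with the pseudocount of 0.1, 627 of 20795 without the filter and 269 of 10937 without those 4. On the deposited TPM the median of all genes tested moved to -0.48 with 2NBDG uptake and -0.40 with B220 loss, and 3892 fell and 14 rose with 2NBDG uptake, against 499 and 227; that setting also left 4736 genes past the filter in place of 11246. For B220 loss (2 fell, 0 rose), 7 of the 8 tested fell on the deposited TPM, where 3394 of all 4736 genes did. With 1 library left out 1 to 6 fell, where 376 to 967 of all genes did. Without the 4 replicate 3 libraries 6 fell, where 448 of all 10937 genes did. Without the filter 1 rose, where 494 of all genes did, and without those 4 libraries 1 rose, where 188 did. In bone marrow (1 rose, 0 fell), 0 rose on the deposited TPM, 2 with median-of-ratios scaling, 0 without the filter and 0 to 1 with 1 library left out, and 1 fell without the 4 replicate 3 libraries. The 2 were Cd4 and Il7r. Il7r alone was called with a pseudocount of 0.1, and without replicate 2 or 3 of B220-2NBDG- or replicate 3 of BMPC. Over all genes tested, 30 rose on the deposited TPM, 198 with median-of-ratios scaling, 110 without the filter and 43 to 150 with 1 library left out. The cause of these moves was not tested. The interaction count was 0 in every alternative run.

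Replicate numbers are shared between groups, and the same-numbered spleen libraries correlated at 0.089 to 0.415 in their deviations from group means, 2 of 18 pairs below 0.1, so the numbers were not taken as a pairing. Each of the 12 spleen libraries did correlate best with its own number in all other spleen groups, a hint from the data and not the design. With a replicate block, 16 of the 24 genes fell with 2NBDG uptake, 5 fell with B220 loss and 2 rose in bone marrow. In the same order, 610, 783 and 172 of all 11246 genes tested did. Few reads limit the low groups: the receptor and CD3 genes together rest on 82.4 to 120 estimated reads in BMPC.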
